A study of Mus musculus with 24 samples.

Results

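The genes described here are 33 genes of the lysosome and of autophagy, measured in mouse liver. They were taken by gene symbol from a list of lysosomal hydrolases, lysosomal membrane proteins, the transcription factor gene Tfeb and autophagy genes, and each symbol matched 1 of the 41388 genes counted. By role, the list held 9 cathepsins and related proteases, 6 lipid hydrolases, activators and lipid transfer proteins, 9 glycosidases, 5 membrane proteins, Tfeb and 3 autophagy genes. All 33 passed the limit on low counts, a CPM (a gene's count scaled to the total of its library) above 1 in 4 or more of the 20 single-mouse libraries, which 13052 genes passed in all.

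RNA was sequenced from livers of male mice on the C57BL/6J background. Adn-Lpin1-/- mice had floxed Lpin1 alleles and a Cre recombinase driven by the adiponectin promoter, which removes lipin 1, a phosphatidic acid phosphatase, from adipocytes. WT mice were littermates with the same floxed alleles and no Cre, so both genotypes carried the floxed gene. From the age of 8 weeks the mice ate a low-fat diet (LFD, 10% of kcal from fat) or a high-fat diet (HFD, 60%), and all were fasted for 4 hours before the liver was taken; the study's methods state 5 weeks of feeding, whereas 16 weeks is written in the labels. All 4 groups, WT LFD, Adn-Lpin1-/- LFD, WT HFD and Adn-Lpin1-/- HFD, had 5 single-mouse libraries each, and 1 further library per group pooled the RNA of the same 5 mice and was left out of the main tests. Lpin1 RNA in liver cannot serve as a check of the genotypes, since liver cells keep the gene.

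Lysosomes are the acidic organelles in which cells break down protein, lipid, glycan and nucleic acid that arrive by endocytosis or by autophagy. Acid hydrolases carry out the breakdown, membrane proteins keep the compartment closed and move its products out, and autophagosomes deliver cytoplasmic cargo, lipid droplets among it. TFEB binds E-box sequences in the promoters of many of these genes and is held in the cytoplasm by mTORC1 when nutrients are plentiful. In liver, hepatocytes use the pathway during fasting and for lipid turnover, and Kupffer cells, the resident macrophages, are rich in lysosomes and in some cathepsins.

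Some members share a feature of their promoters that the choice of the list did not use. RefSeq promoter sequences on GRCm38.p6, reaching from 250 bases before to 50 bases after the start site, were found for 29 of the 33 members, 3 of them with more than 1 promoter. The E-box core CACGTG, which reads the same on both strands, lay in the window of 9 of these 29 genes, or 31.0%, beside 8.09% of the 27025 genes with such a window. Its extended form TCACGTGA, which contains the core, lay in 4 of 29, or 13.8%, beside 1.12% of all. Shown here are the cores, in capitals, of the 4 members among these 9 whose values in every mouse are given further on, with positions counted from the start site at 0 and each sequence read 5′ to 3′ on the strand of its gene.
Lamp1, positions -65 to -36: atatCACGTGgtccagcgccCACGTGatgc
Lamp1, positions -32 to -6: ctggCACGTGaccacatCACGTGcgga
Ctsd, positions -250 to -228: tccccCACGTGacctgtatccag
Ctsd, positions -110 to -81: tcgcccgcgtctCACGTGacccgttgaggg
Naglu, positions -85 to -56: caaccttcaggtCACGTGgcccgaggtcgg
Ctsl, positions -248 to -219: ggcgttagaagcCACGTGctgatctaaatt
Lamp1 held 4 cores in its window, on the plus strand at chr8:13159096-13159125 and chr8:13159129-13159155, all upstream of the gene as GENCODE M21 annotates it. The Ctsd windows lie on the minus strand at chr7:142388055-142388077, upstream of the gene, and at chr7:142387908-142387937, inside an exon of at least 1 transcript, and the latter holds the extended form. The Naglu window lies on the plus strand at chr11:101070009-101070038 with its core in an exon, and the Ctsl window on the minus strand at chr13:64370739-64370768 with its core across the edge of an exon. The other 5 genes with a core were Ctsa, Gaa, Gla, Glb1 and Mcoln1. A match describes these letters in this window and does not show that a factor binds there.

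The 33 genes spanned a wide range of levels, here in CPM per kb of annotated gene length so that genes can be compared with each other. Lamp1, a heavily glycosylated protein of the lysosomal membrane, was the highest at 304 CPM per kb averaged over the 4 groups. It was followed by Ctsl at 228, Gabarapl1 at 176.1, Psap at 175.9 and Ctsz at 174. At the low end stood Cd63 at 3.73, Tfeb at 2.76, Manba at 2.41 and the alpha-galactosidase gene Gla at 1.38 CPM per kb. Among the mice of 1 group, the median coefficient of variation of CPM over the 4 groups ran from 4.19% for Lamp2 to 28.3% for both Cd63 and Ctss.

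**Figure D1:**
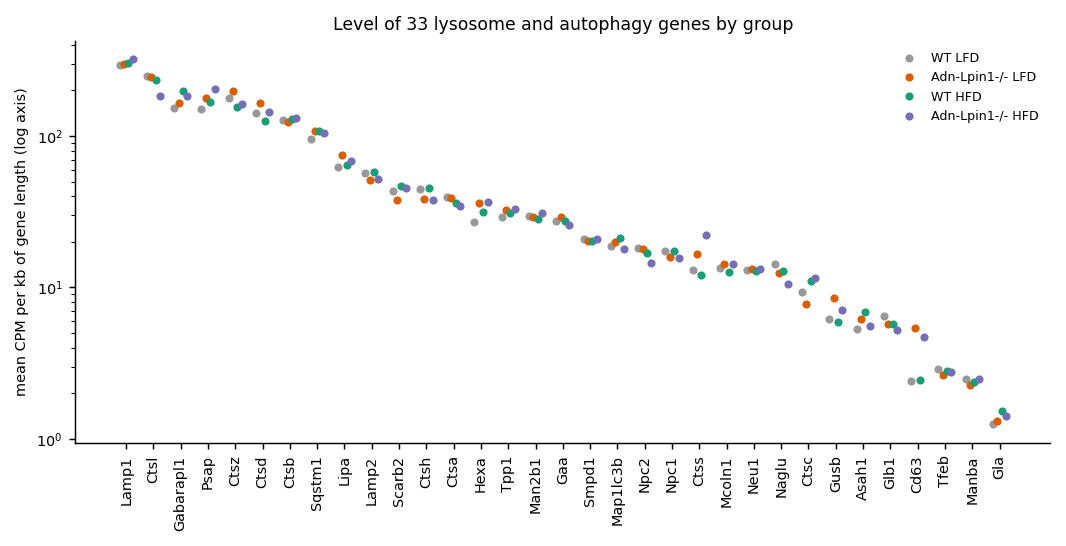
Mean level of each of the 33 genes in the 4 groups, in CPM per kb of gene length on a log axis, with genes ordered by their mean over the groups. Each dot is the mean of 5 mice, and the separate positions of the 2 Adn-Lpin1-/- dots for Cd63 (5.39 and 4.67 against 2.40 and 2.45 in WT) are visible near the right end.

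The first question was whether loss of lipin 1 in fat changed these genes in the liver. On the LFD 4 of the 33 members passed an adjusted p of 0.05: Cd63 and Gusb were higher and Ctsh and Naglu were lower in Adn-Lpin1-/- livers. On the HFD 5 passed: Cd63 and Ctss were higher and Ctsh, Naglu and Ctsl were lower. The called changes thus ran in both directions on both diets, and the remaining 29 and 28 members lay between differences of -0.30 and 0.41 on the log2 scale. Adjusted p-values here come from the quasi-likelihood test of edgeR, corrected by Benjamini-Hochberg over the 13052 genes, and differences are log2 fold changes with their standard errors (SE).

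The share of members called was close to that of all genes. On the LFD 12.1% of members were called beside 14.4% of all genes tested, with 6.27% of all genes higher and 8.11% lower. On the HFD the share was 15.2% of members beside 18.6% of all, with 9.87% higher and 8.78% lower. Over the 33 members the median difference (log2) was 0.03 under the LFD and 0.01 under the HFD, beside 0.01 and 0.00 for all genes tested. The CPM of a member did not overlap between the genotypes for 2 members on the LFD (Ctsh and Lamp2) beside 10.1% of all genes, and for 3 on the HFD (Ctsh, Ctss and Naglu) beside 11.4%. These shares are counted over the same libraries and describe the list. The single-mouse libraries held 36260187 to 81072794 counts, and the totals of Adn-Lpin1-/- LFD livers (51095146 to 61435897) lay above those of WT LFD livers (36260187 to 45999456). With every library thinned to the smallest total, the calls again numbered 4 and 5, with Npc2 in place of Ctsl on the HFD. The TMM factors that scale the library sizes tended to be higher in Adn-Lpin1-/- livers. They ran from 0.931 to 0.972 in WT LFD and from 1.002 to 1.045 in Adn-Lpin1-/- LFD livers. On the HFD they ran from 0.9435 to 0.993 and from 0.989 to 1.091. A higher factor lowers CPM, so small falls and ranges that do not overlap hold for CPM scaled in this way. Scaling by DESeq2 size factors called the same 4 and 5 members. Of the members, 13 overlap another annotated gene, 10 of them on the opposite strand, and the counting is not stated to use strand. Among the called members this touches Ctsc and Ctss, whose neighbours had 0.332% and 0.387% of their counts. The largest such shares were those of uncalled members. They were 73.9% for Glb1 (Tmppe, same strand), 34.5% for Map1lc3b (Zcchc14, opposite strand) and 28.0% for Ctsa (Pltp, opposite strand).

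**Figure D2:**
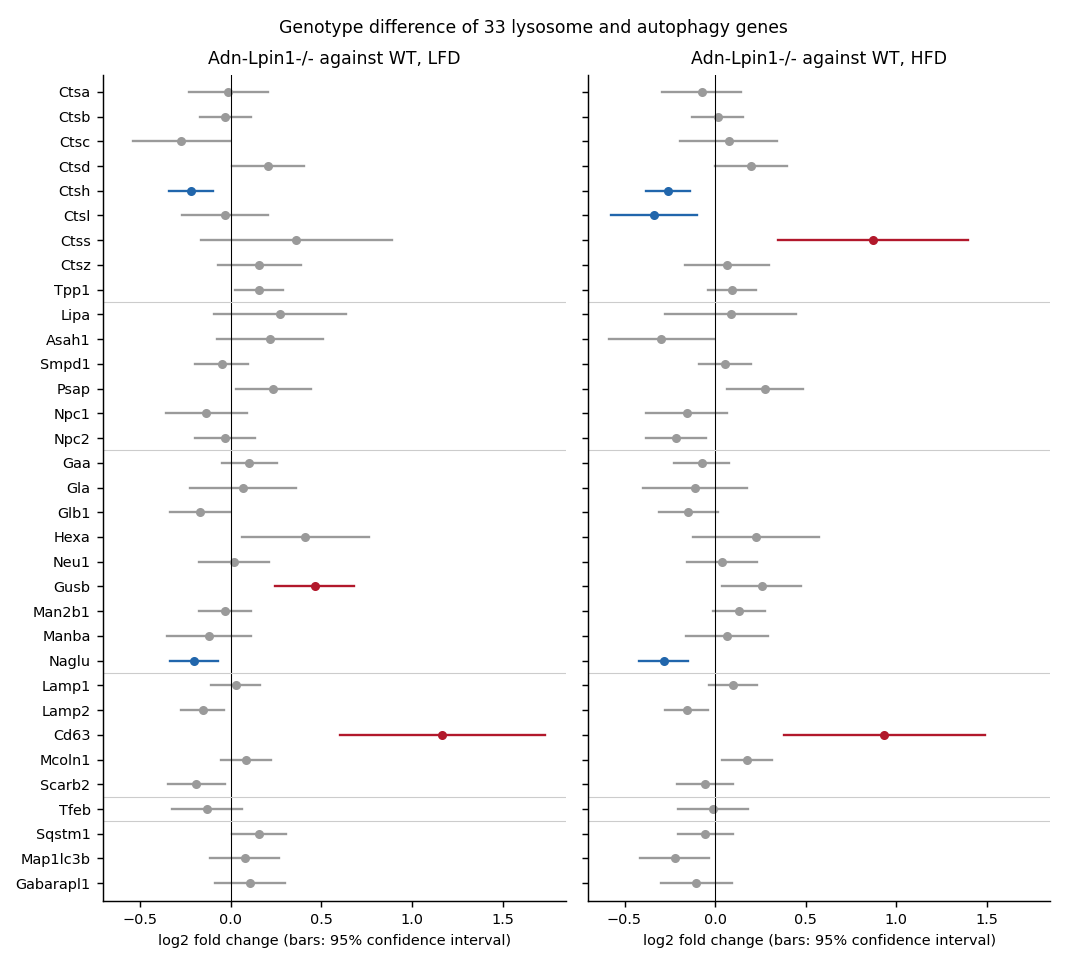
Log2 fold change of the 33 genes in Adn-Lpin1-/- against WT livers on the LFD (left) and the HFD (right), with points for estimates and bars for 95% confidence intervals, in order of role with grey lines between roles. Red and blue mark genes past an adjusted p of 0.05 that were higher or lower, and grey marks the others; Cd63 lies farthest to the right on both diets (1.17 and 0.93).

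Among the 9 cathepsins and related proteases, 1 fell on the LFD, and 1 rose and 2 fell on the HFD. Ctsh, which encodes the lysosomal aminopeptidase cathepsin H, was lower on both diets. In order of mouse number, 1 to 5, it measured 211, 193, 221, 184 and 198 CPM in the WT LFD livers and 167, 169, 168, 178 and 182 in the Adn-Lpin1-/- LFD livers. The genotypes did not overlap on this diet in these TMM scaled CPM, with all Adn-Lpin1-/- mice the lower. The log2 fold change was -0.22 (SE 0.059, adjusted p = 0.018), so that the level fell by 14.1% (95% interval of the change, -21.1% to -6.43%). That call was lost without WT LFD mouse 3 (-0.19, adjusted p = 0.054) and with no limit on low counts (adjusted p = 0.072). On the HFD the WT livers held 200.4, 214, 207, 195 and 205 CPM and the Adn-Lpin1-/- livers 163, 167, 166, 191 and 165. The genotypes again did not overlap, with a log2 fold change of -0.26 (SE 0.059, adjusted p = 0.0060) and an exact two-sided permutation p of 0.00794 over the mice on each diet, the smallest that 5 against 5 allow.

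Ctss encodes cathepsin S, a cysteine protease that trims the invariant chain of MHC class II and that macrophages and other antigen-presenting cells express strongly. On the HFD it measured 14.9, 18.1, 13.6, 17.8 and 18.1 CPM in WT livers and 30.02, 53.7, 19.3, 19.4 and 28.5 CPM in Adn-Lpin1-/- livers. All Adn-Lpin1-/- values were above all WT values, and Adn-Lpin1-/- mouse 2 was far above the rest. The log2 fold change was 0.87 (SE 0.25, adjusted p = 0.022), and without that mouse it was 0.56 with an adjusted p of 0.091. Without WT HFD mouse 3 the adjusted p was 0.054. On the LFD Ctss measured 22.8, 18.6, 12.8, 19.3 and 14.3 CPM in WT and 14.9, 23.1, 23.1, 17.3 and 34.6 CPM in Adn-Lpin1-/- livers. These groups overlapped, and the log2 fold change of 0.36 (SE 0.25, adjusted p = 0.36) did not pass the threshold.

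Markers of macrophages moved with Ctss. Of 12 Kupffer cell and macrophage markers, 9 were called higher in Adn-Lpin1-/- livers on the HFD and 0 on the LFD, where all 12 log2 fold changes were above zero (median 0.31). Their summed level ran from 246 to 307 CPM in WT HFD livers and from 316 to 725 CPM in Adn-Lpin1-/- HFD livers, and the mouse with the highest Ctss was also the mouse with the highest sum. On the LFD the sums overlapped, with 201 to 379 CPM in WT and 259 to 497 CPM in Adn-Lpin1-/- livers. None of the 12 markers was at 0 in any mouse. Ctss divided by that sum, a ratio chosen after the values were seen, was 0.0596 ± 0.0036 (SD, n = 5) in WT HFD and 0.0635 ± 0.0063 (SD, n = 5) in Adn-Lpin1-/- HFD livers, which did not differ beyond the spread between mice (exact two-sided permutation p = 0.26). The same ratio was formed for the other members called in a genotype or diet comparison. Between genotypes on the HFD it had log2 differences of -0.42 for Gusb, -1.01 for Ctsl, -0.94 for Ctsh, -0.97 for Naglu and -0.91 for Npc2. Its divisor, the marker sum, was itself higher in Adn-Lpin1-/- HFD livers. In whole liver, more cells of a type and more RNA per cell cannot be told apart.

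**Figure D3:**
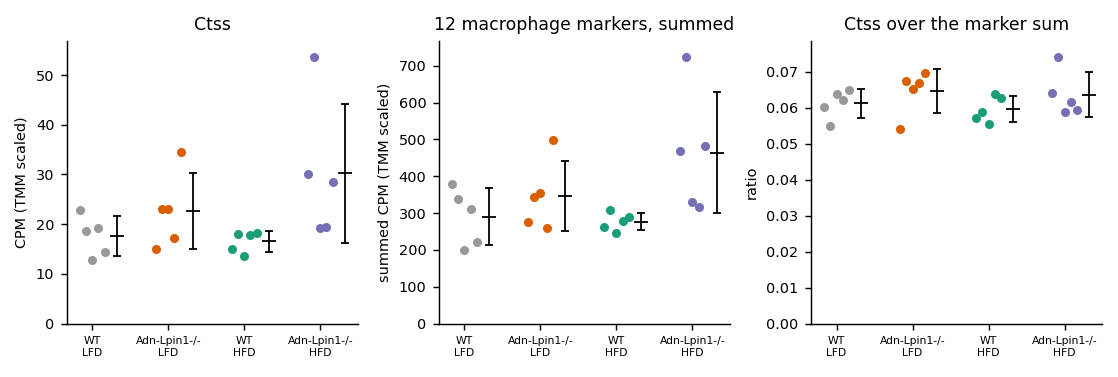
Ctss in CPM (left), the summed CPM of 12 Kupffer cell and macrophage markers (middle) and the ratio of the first to the second (right) in the 4 groups. Dots are single mice and the bar beside them is the mean with its SD (n = 5); Ctss and the sum are both highest in the same Adn-Lpin1-/- HFD mouse (53.7 and 725 CPM), while the group means of the ratio lie between 0.0596 and 0.0646.

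Ctsl encodes cathepsin L, a cysteine endopeptidase and the member with the highest CPM per kb among the cathepsins. In CPM without the scaling to length, Ctsb was higher (607 against 450). On the HFD Ctsl measured 443, 406, 419, 420.3 and 615 CPM in WT and 328, 363, 326, 427 and 379 CPM in Adn-Lpin1-/- livers. The groups overlapped, and WT mouse 5 stood well above the others. The log2 fold change was -0.34 (SE 0.11, adjusted p = 0.044), which lost the threshold without that mouse (-0.22, adjusted p = 0.13). It was also lost without WT HFD mouse 1, without Adn-Lpin1-/- HFD mouse 1, 2, 3 or 5 and without Adn-Lpin1-/- LFD mouse 2 (adjusted p 0.051 to 0.10), and under 7 of 11 other settings (adjusted p up to 0.17). On the LFD, with 431, 537, 490.1, 473 and 528 CPM in WT and 519, 457, 571, 436 and 423 CPM in Adn-Lpin1-/- livers, the log2 fold change was -0.03 (SE 0.11, adjusted p = 0.89). Ctsd, the aspartyl protease cathepsin D, measured 358, 350.3, 324, 357 and 405 CPM in WT LFD and 368, 422, 425, 419.9 and 435 CPM in Adn-Lpin1-/- LFD livers. It measured 304, 318, 315, 357 and 297 CPM in WT HFD and 407, 431, 382, 301 and 303 CPM in Adn-Lpin1-/- HFD livers. The groups overlapped on both diets, and neither log2 fold change, 0.21 (SE 0.094, adjusted p = 0.15) on the LFD or 0.20 (SE 0.094, adjusted p = 0.15) on the HFD, passed. The other cathepsins, Ctsa, Ctsb, Ctsc and Ctsz, and the related tripeptidyl peptidase gene Tpp1 were not called in either genotype comparison.

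Among the 9 glycosidases, 1 rose and 1 fell on the LFD, and 1 fell on the HFD. Gusb encodes beta-glucuronidase, which removes glucuronic acid from glycosaminoglycans. On the LFD it measured 29.4, 24.8, 25.7, 26.4 and 34.0 CPM in WT and 32.4, 43.2, 35.3, 42.9 and 39.5 CPM in Adn-Lpin1-/- livers. A single WT mouse, mouse 5, reached into the range of the Adn-Lpin1-/- mice. The log2 fold change of 0.46 (SE 0.11, adjusted p = 0.0063) passed the threshold under all 11 other settings and without each of the 20 mice in turn (adjusted p up to 0.029). On the HFD, with 26.7, 28.9, 25.3, 31.4 and 22.9 CPM in WT and 36.5, 34.7, 31.9, 28.1 and 30.2 CPM in Adn-Lpin1-/- livers, the log2 fold change was 0.26 (SE 0.10, adjusted p = 0.091), and the test of the difference between the diets gave -0.21 (SE 0.15, adjusted p = 0.83).

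Naglu encodes the alpha-N-acetylglucosaminidase that takes part in heparan sulfate breakdown. It measured 33.4, 34.0, 35.1, 35.6 and 33.3 CPM in WT HFD and 26.4, 31.2, 24.9, 28.1 and 30.3 CPM in Adn-Lpin1-/- HFD livers. The genotypes did not overlap on the HFD, where Adn-Lpin1-/- mice were lower, and the log2 fold change was -0.28 (SE 0.064, adjusted p = 0.0059). On the LFD it measured 38.6, 41.4, 36.4, 34.5 and 40.3 CPM in WT and 34.0, 32.5, 35.1, 32.3 and 32.1 CPM in Adn-Lpin1-/- livers. Here the ranges overlapped slightly, with a log2 fold change of -0.20 (SE 0.065, adjusted p = 0.040) that lost the threshold without any of 8 single mice, namely WT LFD mouse 1, 2, 3 or 5, Adn-Lpin1-/- LFD mouse 2, 4 or 5 or WT HFD mouse 3 (adjusted p 0.051 to 0.11), and under 4 of 11 other settings (down to -0.09, adjusted p up to 0.23). The largest difference among uncalled members was that of Hexa, the alpha subunit of beta-hexosaminidase, at 0.41 (SE 0.17, adjusted p = 0.10) on the LFD. Some hepatocyte markers fell beside Ctsh and Naglu: the sum of 8 of them ran from 106400 to 115000 CPM in WT LFD and from 77180 to 101800 CPM in Adn-Lpin1-/- LFD livers, and on the HFD from 97200 to 123500 CPM in WT and from 81050 to 106600 CPM in Adn-Lpin1-/- livers. Most of the sum was Alb, at 78710 of a mean of 110300 CPM in WT LFD livers, and Alb was called on the HFD alone. Tat went the other way, with means of 1183 CPM in WT and 1713 CPM in Adn-Lpin1-/- LFD livers, and of 863 and 1014 CPM on the HFD. Log2 fold changes were above zero for 2 of the 8 on the LFD and 1 on the HFD. Of these 8 markers none was at 0 in any mouse, and the number called lower was 2 under the LFD and 4 under the HFD. Their part in the lower Ctsh and Naglu was not tested.

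Of the 5 membrane proteins, 1 rose on each diet. Cd63, a tetraspanin of late endosomes, lysosomes and exosomes, showed the largest log2 fold change of the 33 genes in both genotype comparisons, from a low level. It measured 2.47, 1.91, 2.47, 2.16 and 3.35 CPM in WT LFD and 3.26, 7.58, 4.75, 4.67 and 7.54 CPM in Adn-Lpin1-/- LFD livers. Adn-Lpin1-/- mice 2 and 5 were highest, and mouse 1 was just below the highest WT mouse. The log2 fold change was 1.17 (SE 0.27, adjusted p = 0.0072), or 125% higher (95% interval 52.0% to 232%). On the HFD it measured 2.23, 1.95, 2.54, 2.77 and 3.12 CPM in WT and 8.06, 5.46, 3.96, 2.56 and 4.05 CPM in Adn-Lpin1-/- livers. The groups overlapped through Adn-Lpin1-/- mouse 4, and mouse 1 was the highest. The log2 fold change was 0.93 (SE 0.27, adjusted p = 0.020), with 0.67 and an adjusted p of 0.073 without mouse 1 and an adjusted p of 0.054 without WT HFD mouse 2. The lowest count of Cd63 in any mouse was 83, the lowest among the members. Stellate cell and lipid-associated macrophage markers were also higher where Cd63 was. Of 8 stellate cell markers 5 were called higher on the LFD and 4 on the HFD, with sums of 86.7 to 169 CPM in WT LFD and 180 to 405 CPM in Adn-Lpin1-/- LFD livers, and of 151 to 222 CPM in WT HFD and 183 to 419 CPM in Adn-Lpin1-/- HFD livers. Of 8 lipid-associated macrophage markers 1 was called higher on the LFD and 4 on the HFD, with sums of 37.2 to 62.5 CPM in WT LFD and 51.6 to 98.3 CPM in Adn-Lpin1-/- LFD livers, and of 23.2 to 43.9 CPM in WT HFD and 34.5 to 73.4 CPM in Adn-Lpin1-/- HFD livers. Most of the lipid-associated macrophage sum was Spp1, at 28.52 of a mean of 47.69 CPM in WT LFD livers, followed by Cd9. Neither was called between genotypes on either diet. On the HFD Spp1 had means of 21.02 CPM in WT and 33.22 CPM in Adn-Lpin1-/- livers, and Cd9 of 8.68 and 9.05 CPM. The markers called, Gpnmb on both diets and Mmp12, Itgax and Lgals3 on the HFD, had group means of at most 6.08 CPM. Cd63 divided by the summed Kupffer cell and macrophage markers had log2 differences between genotypes of 0.87 (exact two-sided permutation p = 0.056) on the LFD and 0.17 (p = 0.59) on the HFD. The part of any of these cell types in the level of Cd63 was not tested.

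Lamp1 measured 653, 628, 669.8, 619.7 and 739 CPM in WT LFD and 619, 722, 618, 684 and 732 CPM in Adn-Lpin1-/- LFD livers. It measured 655, 636, 712, 687 and 711 CPM in WT HFD and 730.0, 737, 726, 745 and 703 CPM in Adn-Lpin1-/- HFD livers. The groups overlapped on both diets. The log2 fold changes were 0.03 (SE 0.065, adjusted p = 0.82) and 0.10 (SE 0.065, adjusted p = 0.30), with 95% intervals of -0.11 to 0.16 and -0.04 to 0.23. Lamp2, the partner of Lamp1 that also serves chaperone-mediated autophagy, did not pass, at -0.15 (SE 0.057, adjusted p = 0.074) on the LFD and -0.16 (SE 0.056, adjusted p = 0.058) on the HFD. It did pass on both diets under DESeq2 and under limma's voom with quality weights. Mcoln1, a calcium channel of the lysosome, and Scarb2, the receptor that sorts beta-glucocerebrosidase, were not called.

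None of the 6 genes of lipid breakdown and lipid transfer was called in either genotype comparison. Lipa encodes lysosomal acid lipase, which hydrolyses cholesteryl esters and triglycerides. It measured 173, 165, 154, 178 and 252.5 CPM in WT LFD and 155, 268, 218, 215 and 259 CPM in Adn-Lpin1-/- LFD livers. It measured 186, 188, 186, 233 and 162 CPM in WT HFD and 263, 216, 237, 163 and 136 CPM in Adn-Lpin1-/- HFD livers. The groups overlapped widely on both diets, with log2 fold changes of 0.27 (SE 0.17, adjusted p = 0.32) and 0.09 (SE 0.17, adjusted p = 0.77). The interval on the LFD, -0.09 to 0.64, leaves room for a sizeable difference in that gene. Psap, the precursor of the saposins that help hydrolases reach their lipids, came nearest to the threshold at 0.27 (SE 0.10, adjusted p = 0.059) on the HFD, while Asah1, Smpd1, Npc1 and Npc2 had differences of -0.30 to 0.22 over both diets.

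Tfeb measured 18.6, 17.1, 18.2, 13.7 and 13.8 CPM in WT LFD and 17.6, 14.7, 14.6, 14.5 and 12.9 CPM in Adn-Lpin1-/- LFD livers. It measured 16.3, 15.7, 16.8, 14.9 and 15.4 CPM in WT HFD and 15.1, 16.98, 14.2, 16.1 and 16.1 CPM in Adn-Lpin1-/- HFD livers. The groups overlapped on both diets, and the log2 fold changes were -0.13 (SE 0.093, adjusted p = 0.38) and -0.01 (SE 0.092, adjusted p = 0.94). TFEB is controlled largely by phosphorylation and its place in the cell, which RNA does not show. The members with an E-box core in their promoter window had median differences (log2) of 0.03 under the LFD and -0.07 under the HFD, and the 20 members with a window and no core had medians of 0.09 and 0.07. Of the 9 with a core, Naglu fell on both diets and Ctsl on the HFD, and Cd63, Ctss and Gusb, the 3 members that rose, have no core in their windows. Ctsh, which fell on both diets, had no promoter sequence here and enters neither set. The calls of Naglu on the LFD and of Ctsl on the HFD were lost under several settings, as given above. A link between cores and changes was not tested.

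None of the 3 autophagy members was called between genotypes. Sqstm1, whose product p62 carries ubiquitinated cargo to the autophagosome and is consumed with it, measured 314, 325, 325, 318 and 333 CPM in WT LFD and 373, 403, 367, 331 and 325 CPM in Adn-Lpin1-/- LFD livers. It measured 395, 350.4, 333, 351 and 391 CPM in WT HFD and 326, 327, 393, 376 and 329.8 CPM in Adn-Lpin1-/- HFD livers. The log2 fold changes between genotypes were 0.16 (SE 0.072, adjusted p = 0.16) on the LFD and -0.06 (SE 0.072, adjusted p = 0.63) on the HFD, and the groups overlapped on both. Map1lc3b, the LC3 protein that marks autophagosomes, measured 147, 124, 159, 148 and 132 CPM in WT LFD and 148, 143, 150.2, 178 and 130.2 CPM in Adn-Lpin1-/- LFD livers. It measured 156, 144, 149, 169.7 and 175 CPM in WT HFD and 133, 144, 112, 149.5 and 140.5 CPM in Adn-Lpin1-/- HFD livers. Its log2 fold changes were 0.08 (SE 0.091, adjusted p = 0.62) and -0.22 (SE 0.091, adjusted p = 0.090), with overlap on both diets. Gabarapl1, a relative of LC3, gave 0.11 (SE 0.093, adjusted p = 0.48) and -0.10 (SE 0.093, adjusted p = 0.46). RNA of these genes does not measure autophagic flux.

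**Figure D4:**
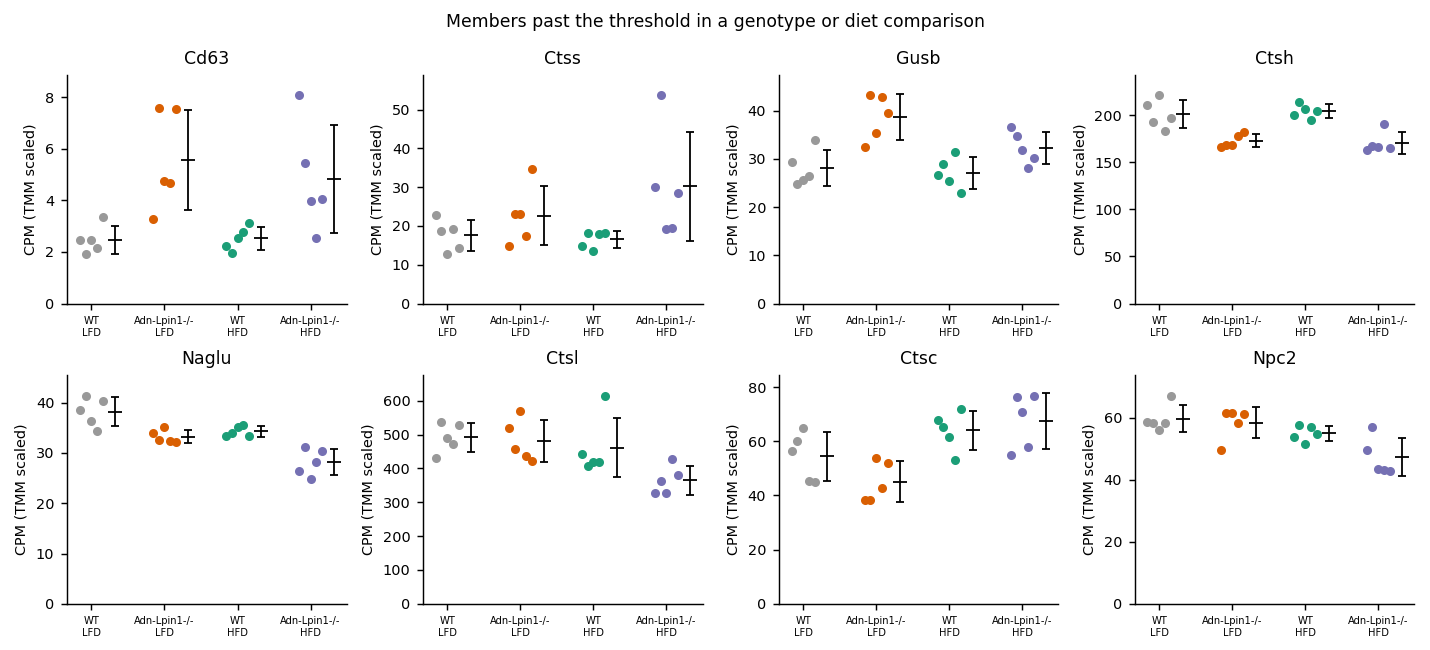
CPM in each mouse for the 8 members past an adjusted p of 0.05 in a genotype or diet comparison, with axes from 0. Dots are single mice and the bar beside them is the mean with its SD (n = 5); Ctsh is lower in every Adn-Lpin1-/- mouse than in every WT mouse on the same diet, while Cd63 and Ctss spread widely among Adn-Lpin1-/- mice.

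Genes of the same pathways outside the 33 were called between genotypes in both directions as well. Of 28 other lysosomal hydrolases and activators tested, 2 rose on each diet and none fell. These were the arylsulfatase gene Arsa on both diets (0.39, SE 0.084, adjusted p = 0.0041 on the LFD, and 0.27, SE 0.083, adjusted p = 0.029 on the HFD), Ppt1 on the LFD (0.33, SE 0.089, adjusted p = 0.019) and the asparaginyl endopeptidase gene Lgmn on the HFD (0.59, SE 0.16, adjusted p = 0.017). Of 21 other membrane proteins and transporters, 2 rose on the LFD and 5 on the HFD, led on the LFD by the cation channel gene Tpcn2 (0.55, SE 0.17, adjusted p = 0.033) and Cln3 (0.22, SE 0.059, adjusted p = 0.017). On the HFD the peptide transporter gene Slc15a3 (0.98, SE 0.32, adjusted p = 0.039), Cd68, itself used as a macrophage marker (0.82, SE 0.20, adjusted p = 0.0079), and Tpcn2 (0.68, SE 0.17, adjusted p = 0.0086) led. The macrophage marker sums given beside Ctss apply to these genes too, and their part was not tested. Slc15a3 and Tpcn2 were at low levels. On the HFD Slc15a3 had means of 3.34 CPM in WT and 6.58 CPM (SD 3.67) in Adn-Lpin1-/- livers. Tpcn2 had means of 2.80 and 4.10 CPM on the LFD and of 2.40 and 3.84 CPM on the HFD, in the same order.

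Of 17 subunits of the vacuolar ATPase, which acidifies the lysosome, 1 fell on the LFD and 2 on the HFD. Atp6v0d2 fell by 0.84 (SE 0.27, adjusted p = 0.040) and 1.16 (SE 0.25, adjusted p = 0.0042) on the log2 scale, and Atp6v1g1 by 0.28 (SE 0.087, adjusted p = 0.031) on the HFD. The level of Atp6v0d2 was close to the limit on low counts. Its means were 1.23 CPM in WT and 0.684 CPM in Adn-Lpin1-/- livers on the LFD, and 2.49 and 1.11 CPM on the HFD. Of 17 lysosomal sorting genes, Gga2 (0.43, SE 0.13, adjusted p = 0.028) and Vps18 (0.25, SE 0.086, adjusted p = 0.047) rose on the HFD and none was called on the LFD. Of 20 genes for MiT/TFE factors and mTORC1 at the lysosome, Fnip1, a folliculin partner, fell by 0.65 (SE 0.13, adjusted p = 0.0020) and 0.53 (SE 0.12, adjusted p = 0.0069) on the log2 scale, and Mlst8 rose on the HFD (0.36, SE 0.12, adjusted p = 0.046).

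The autophagy machinery and its receptors, 38 genes, gave 4 that rose and 2 that fell on the LFD and 2 that rose and 5 that fell on the HFD. Rb1cc1, the FIP200 subunit of the ULK complex that starts autophagosome formation, fell by 0.46 (SE 0.074, adjusted p = 0.00046) on the LFD and 0.61 (SE 0.074, adjusted p = 3.5e-05) on the HFD on the log2 scale. Its partner kinases moved apart on the LFD, where Ulk2 fell by 0.40 (SE 0.087, adjusted p = 0.0046) on the log2 scale and Ulk1 rose by 0.33 (SE 0.10, adjusted p = 0.038). On the HFD Vmp1, a membrane protein of the autophagosome's origin, rose by 0.47 (SE 0.15, adjusted p = 0.034), and the mitophagy receptor gene Bnip3 fell by 0.38 (SE 0.12, adjusted p = 0.037) on the log2 scale. The shares called in these 6 lists, 0% to 15.8% on the LFD and 7.14% to 23.8% on the HFD, stand beside the 14.4% and 18.6% of all genes.

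The second question was whether the HFD changed the same genes. In WT livers 0 of the 33 members passed the adjusted threshold in edgeR, beside 1.1% of all genes, with 0.429% of all higher and 0.674% lower. At an unadjusted p under 0.05 there were 6 of 33 beside 15.8% of all genes, and DESeq2 and voom with quality weights each called 1, Gabarapl1. In the main test Gabarapl1 was higher on the HFD by 0.37 (SE 0.093, adjusted p = 0.060). The 1 member whose ranges did not overlap, beside 3.73% of all genes, was Sqstm1, whose highest LFD and lowest HFD values in WT both round to 333 CPM. Its log2 fold change was 0.17 (SE 0.072, adjusted p = 0.25). The totals of WT HFD livers (54036184 to 62249701 counts) lay above those of WT LFD livers (36260187 to 45999456). Thinned to the smallest total, the libraries again gave 0 called members between the diets in WT.

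In Adn-Lpin1-/- livers 2 of 33 members were called between the diets, beside 2.46% of all genes, of which 1.2% were higher and 1.26% lower on the HFD. Ctsc, whose product cathepsin C activates the granule proteases of leukocytes, measured 38.1, 38.4, 53.8, 42.9 and 52.1 CPM on the LFD and 55.0, 76.2, 70.9, 57.9 and 76.8 CPM on the HFD. Every HFD mouse was above every LFD mouse, with a log2 fold change of 0.58 (SE 0.13, adjusted p = 0.022). In WT livers Ctsc measured 56.4, 60.2, 65.0, 45.4 and 45.0 CPM on the LFD and 67.7, 65.4, 61.5, 53.2 and 72.1 CPM on the HFD. Those ranges overlapped, with 0.23 (SE 0.13, adjusted p = 0.40), and the difference between the genotypes in the diet change was 0.35 (SE 0.18, adjusted p = 0.74). Macrophage markers moved with Ctsc in this comparison. All 12 Kupffer cell and macrophage markers had log2 fold changes above zero in Adn-Lpin1-/- livers (median 0.45), of which 1, Cd163, was called, whereas in WT livers the median was -0.07 and 0 were called. Ctsc divided by their summed level, a ratio chosen after the values were seen, was 0.134 ± 0.026 (SD, n = 5) on the LFD and 0.156 ± 0.046 (SD, n = 5) on the HFD in Adn-Lpin1-/- livers, a log2 difference of 0.19 (exact two-sided permutation p = 0.42). Between genotypes Ctsc did not follow these markers. It changed by -0.27 on the LFD and 0.07 on the HFD, beside marker medians of 0.31 and 0.75. There the ratio had log2 differences of -0.53 (exact two-sided permutation p = 0.056) on the LFD and -0.61 (p = 0.024) on the HFD. The part of these cells in the level of Ctsc was not tested. The call for Ctsc was lost without Adn-Lpin1-/- LFD mouse 1, 2 or 4 or Adn-Lpin1-/- HFD mouse 2 or 5 (adjusted p 0.052 to 0.063), and in a fit of the 2 groups alone (adjusted p = 0.062). The second member with no overlap between the diets in Adn-Lpin1-/- livers, beside 4.06% of all genes, was Naglu, at -0.24 (SE 0.064, adjusted p = 0.055).

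Npc2, the soluble protein that hands cholesterol to NPC1, measured 49.7, 61.5, 61.4, 58.2 and 61.1 CPM in Adn-Lpin1-/- LFD and 49.7, 57.1, 43.5, 43.3 and 42.9 CPM in Adn-Lpin1-/- HFD livers. The ranges overlapped through LFD mouse 1 and HFD mouse 2, with a log2 fold change of -0.30 (SE 0.080, adjusted p = 0.048). WT livers held 58.6, 58.2, 56.0, 58.3 and 67.1 CPM on the LFD and 53.6, 57.8, 51.6, 57.0 and 54.9 CPM on the HFD, with -0.12 (SE 0.080, adjusted p = 0.50). The call for Npc2 was lost without any of 14 of the 20 mice (adjusted p 0.050 to 0.12) and under 5 of 11 other settings (adjusted p up to 0.15). Of these mice, 6 were WT mice, which enter this comparison through the shared estimate of the spread and the adjustment. Outside the 33, the hydrolase genes Galc (-0.56, SE 0.13, adjusted p = 0.035 in WT, and -0.56, SE 0.13, adjusted p = 0.025 in Adn-Lpin1-/-) and Gm2a (-0.38, SE 0.087, adjusted p = 0.035, and -0.42, SE 0.087, adjusted p = 0.014) were lower on the HFD in both genotypes.

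**Figure D5:**
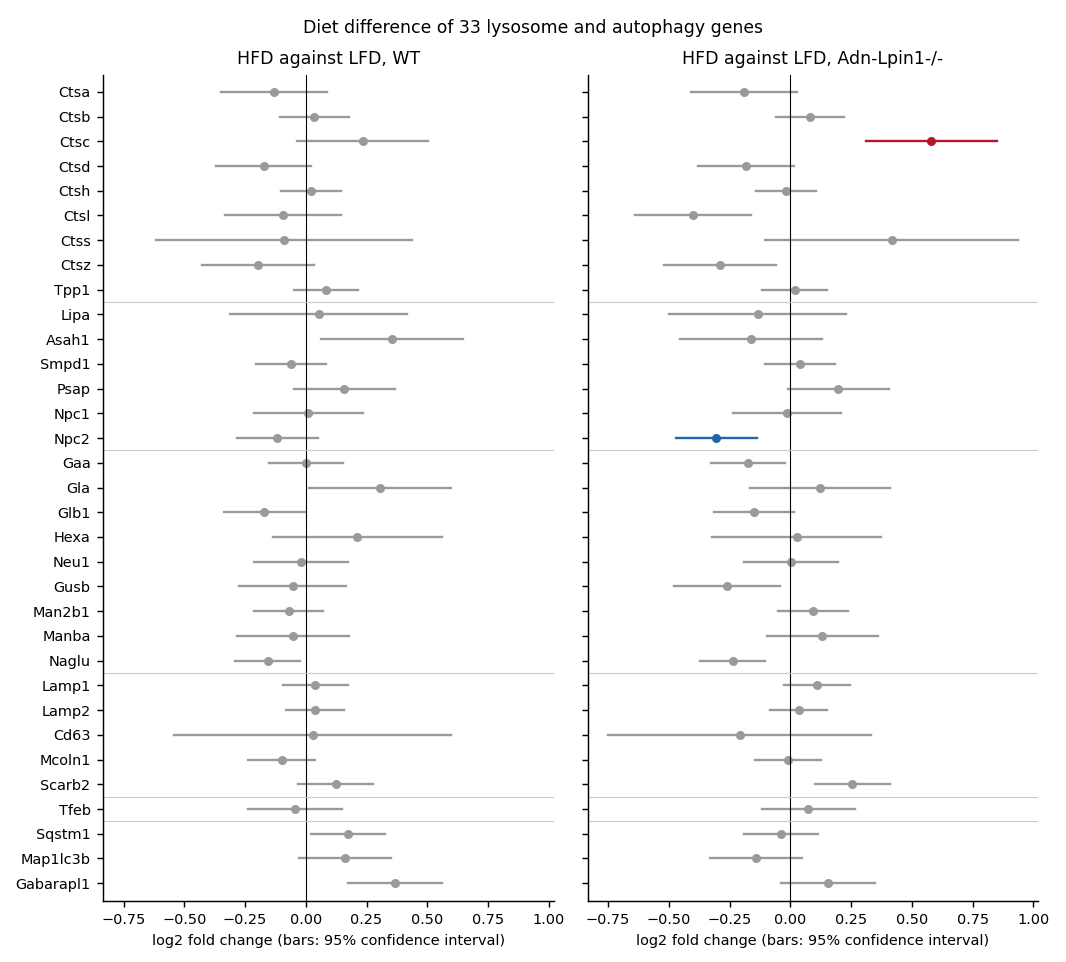
Log2 fold change of the 33 genes on the HFD against the LFD in WT (left) and Adn-Lpin1-/- (right) livers, drawn as in the plot of genotype differences. No gene is past an adjusted p of 0.05 in WT, and Ctsc (0.58) and Npc2 (-0.30) are past it in Adn-Lpin1-/- livers.

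The third question was whether the genotype difference depended on the diet. By edgeR's test of the interaction 0 of 33 members passed, beside 0.0% of all 13052 genes, and DESeq2 and voom with quality weights also called 0 members. At an unadjusted p under 0.05 there were 2 members, beside 7.19% of all genes. These 2, named after their values were seen, were Asah1, the acid ceramidase gene, at -0.52 (SE 0.20, adjusted p = 0.60), and Map1lc3b at -0.30 (SE 0.13, adjusted p = 0.66). For Ctss, called on the HFD alone, the difference between the diets was 0.51 (SE 0.35, adjusted p = 0.83, 95% interval -0.23 to 1.25), and for Gusb, called on the LFD alone, it was given above. The median SE of this test over the members was 0.13, against 0.093 for a genotype comparison, so the interval for a single gene is wide. The genotype comparisons on the 2 diets share no mice with each other, and each shares a group with either diet comparison.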

How the data were processed

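Poly-A selected RNA of 24 mouse liver libraries (20 single mice and 4 pools of 5 mice) was sequenced by the study. Per the labels and the study's methods, the authors aligned reads with STAR 2.5.1a to GRCm38 (Ensembl 76) and counted unambiguous, uniquely aligned reads per gene with featureCounts 1.4.6-p5. The deposited tables give each gene's raw count and, from it, the authors' CPM and RPKM. The counts were used here; the deposited CPM and RPKM served to check the columns. Symbols matched 40254 of 41388 genes (97.3%).

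Library sizes were scaled by TMM, 355 ribosomal RNA genes were left out, and a gene was kept if its CPM was above 1 in 4 or more of the 20 libraries. The 4 groups were fitted together with edgeR 4.0.16 (glmQLFit, glmQLFTest, R 4.3.3). The same fit was run on simulated counts in which 200 genes were changed in the Adn-Lpin1-/- LFD group. Those changes were larger than most differences of the members, so that run does not show how well small changes are found. P-values were adjusted by Benjamini-Hochberg over all 13052 genes, with a threshold of 0.05. Printed CPM are TMM scaled, and single genes were also compared by exact two-sided permutation over mice. Nothing says that the 5 mice of a group differ in litter or day, so p-values measure the spread between these mice, which includes counting error, largest for members of few counts such as Cd63 and Gla.

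Alternatives were DESeq2 1.42.0 size factors and Wald test, limma 3.58.1 voom with quality weights without and with the pools, other limits on low counts, a fit of 2 groups, a replicate block, removal of the GC trend (GC known for 99.47% of genes), thinning and each mouse left out.

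The members and gene lists were chosen with earlier results of these data known. Values in every mouse are given for the 4 largest changes among called members of each genotype and diet comparison and, called or not, for Tfeb, Lamp1, Ctsd, Lipa, Sqstm1 and Map1lc3b. Of other lists, the 3 called genes of largest change are named per genotype comparison. Galc, Gm2a, Lamp2, Hexa, Psap, Asah1 and Gabarapl1 were named after their values were seen. The marker lists without values in the report gave the following counts. Of 6 sinusoidal endothelial markers, 1 rose on the LFD and 3 on the HFD between genotypes. Of the lymphocyte and neutrophil markers 1 of 8, and of the adipocyte markers 1 of 5 (Cfd, higher in Adn-Lpin1-/- livers on both diets), passed the limit on low counts. Adipoq, below that limit, went the other way. Its means were 0.908 CPM in WT and 0.0676 CPM in Adn-Lpin1-/- livers on the LFD, and 0.189 and 0.0270 CPM on the HFD. Group means of Plin1, Lep and Retn were at most 0.0643 CPM.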

Additional observations from a re-analysis of the deposited data

Results flagged for a closer look

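In 132 groups of 5 mice (33 genes in 4 groups), the highest or lowest mouse stood apart from the other 4 by Dixon's test at its 95% limit of 0.71 of the range in 9, where chance alone flags about 6.6. In Adn-Lpin1-/- LFD livers, mouse 5 was high in Ctsb (657 CPM), and mouse 1 was low in Ctsd (368 CPM), Npc2 (49.7 CPM) and Manba (12.4 CPM). In Adn-Lpin1-/- HFD livers, mouse 4 was high in Ctsh (191 CPM), nearest of its group to the WT mice, and mouse 3 was low in Npc1 (131 CPM). In WT LFD livers mouse 5 was high in Lipa (252.5 CPM) and Npc2 (67.1 CPM), and in WT HFD livers mouse 5 was high in Ctsl (615 CPM), the mouse without which the HFD call for Ctsl was lost. No cause was tested.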

How the results depend on the processing

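Direction held for every called member under all 11 other settings and all 20 single-mouse omissions, and no member was called in the opposite direction. The counts of called members moved more. With voom and the pools added as libraries, 14 members were called between genotypes under the LFD and 13 under the HFD, and 4 between diets in WT and 11 in Adn-Lpin1-/-. The pools repeat the RNA of the same mice, so this setting counts them again, and it called 4163, 4740, 1938 and 2342 genes in all. With no limit on low counts, 2 were called on the LFD and 1 between diets in Adn-Lpin1-/-. In WT, DESeq2, voom, the GC trend and the GC trend with the replicate block each called 1 between diets. In Adn-Lpin1-/-, DESeq2 called 5 and voom 4, edgeR's default limit 1, the fit of 2 groups 0 and the replicate block 1. Leaving out 1 mouse gave 2 to 5 on the LFD, 3 to 8 on the HFD, 0 to 1 between diets in WT and 0 to 3 in Adn-Lpin1-/-; the lowest LFD count came without WT LFD mouse 3, and the HFD count was 3 without Adn-Lpin1-/- HFD mouse 1 and 8 without mouse 4. Other lysosome and autophagy genes called numbered 12 under the LFD and 20 under the HFD. They became 36 and 41 with the pools, and the HFD count became 13 with the replicate block and 12 with the GC trend removed and the block. Leaving out 1 mouse gave 9 to 16 under the LFD and 8 to 20 under the HFD, where it was 8 without Adn-Lpin1-/- mouse 2, 11 without WT mouse 5 and 13 without WT mouse 1 or 2 or Adn-Lpin1-/- mouse 1.

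Over all genes, diet calls moved most: 144 in WT became 400 with DESeq2, 670 with voom, 72 in the fit of 2 groups and 90 with the replicate block, and 321 in Adn-Lpin1-/- became 577 with DESeq2 and 161 in the fit of 2 groups. DESeq2 called 30 genes in the test between the diets and edgeR 0. Replicate numbers are shared between groups, but same-numbered mice did not stand out as pairs. Over 30 pairs of same-numbered mice the correlation of deviations ran from -0.44 to 0.30, with 7 above 0.1 and 7 where the own number correlated best. Pairing in another order, such as by litter, was not tested. Between genotypes the replicate block called 3 members (without Naglu) under the LFD and 4 (without Ctsl) under the HFD. With the GC trend removed and the block, Cd63 on the HFD had an adjusted p of 0.069. The causes were not tested. Members with CPM as low as that of Cd63, and those with large spread among mice such as Ctss and Lipa, are the least precise.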

Other observations

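The 4 pooled libraries, left out of the main tests, were compared with the mice they were made from. Pools and mice were compared here in CPM over the raw library total, without the TMM scaling of the printed values. For 122 of the 132 combinations of gene and group, the pool's CPM lay inside the range of its 5 mice: 30 genes for WT and 32 for Adn-Lpin1-/- livers under the LFD, and 31 for WT and 29 for Adn-Lpin1-/- livers under the HFD. Among those outside their range were Ctsh in Adn-Lpin1-/- HFD livers and Naglu in WT livers on both diets.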
